A study of Mus musculus with 10 samples.

Results

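The bile acid receptor FXR (Nr1h4) and the corepressor it induces, SHP (Nr0b2), were followed in 10 mouse pancreatic cancer cell lines, together with the related receptors LXR beta (Nr1h2), LXR alpha (Nr1h3) and LRH-1 (Nr5a2), the partner receptors RXR alpha (Rxra) and RXR beta (Rxrb), and the transporter subunit OST beta (Slc51b). These are 8 of the 49568 genes in the table, and they were chosen by name with earlier results of these data known. Nr1h4 and Nr0b2 were chosen because they had been seen lower in the KPCAf/f lines, so that their values in the 2 genotypes are given as a description with no test. Their positions in GENCODE M21 (GRCm38) are chr10:89454234-89533585 on the minus strand for Nr1h4 and chr4:133553376-133556536 on the plus strand for Nr0b2, and values count reads per gene. Nr1h2 lies at chr7:44549616-44553951 (minus), Nr1h3 at chr2:91184061-91202834 (minus), Nr5a2 at chr1:136842571-136960448 (minus), Rxra at chr2:27676440-27762957 (plus), Rxrb at chr17:34031812-34038399 (plus) and Slc51b at chr9:65412714-65422955 (minus). The other 6 were added as relatives, partners or a target, and those with enough reads were read from a fit over all genes. The lines were 5 of genotype KPCAf/f (A1693, A1809, A1925, A2441 and A3992) and 5 of genotype KPC (A1081, A1620, A1625, A2031 and A2032), all labelled as mouse pancreatic cancer cells and all grown in DMEM with 10% fetal bovine serum. KPC is a mouse model of pancreatic cancer driven by a Cre active in the pancreas, and the labels name neither its alleles nor the promoter of Cre. Both genotypes share that background, and KPCAf/f is taken to add floxed (f/f) alleles of Arid1a, which the title of the series names. Each line gave 1 mRNA library, and whether the lines stem from separate mice is not stated in the labels, so that p-values measure the spread between these lines.

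FXR is a nuclear receptor that binds bile acids and, as a heterodimer with RXR, switches on genes that export bile acids and the gene for SHP. SHP has no DNA-binding domain of its own and holds back other nuclear receptors, LRH-1 among them. The LXRs are oxysterol receptors that also pair with RXR and switch on genes of cholesterol export. FXR is best known from liver and intestine, and LRH-1 from liver, intestine and the acinar cells of the pancreas.

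Libraries held between 15124888 and 20419830 reads assigned to genes. Arid1a was at 1465 ± 221 normalized counts in KPCAf/f lines and 2114 ± 844 in KPC lines (SD, n = 5 each), and the limma fit did not call it (adjusted p = 0.563). KPC line A1620 had the least of all lines (820). The other KPC lines, at 1915 to 3109, lay above every KPCAf/f line (1253 to 1785). A count over the whole gene includes exons outside the deleted part and does not check the allele. The pancreatic factor Pdx1 was at 2.70 and the epithelial marker E-cadherin (Cdh1) at 10.8 normalized counts in A1693 (KPCAf/f). The other 9 lines had at least 594 and 3143, so that these 2 markers were nearly absent from A1693. With each doubling of transcript length the log2 level changed by -0.65 in KPC line A1620 and by -0.02 to 0.04 in the other KPC lines. In the KPCAf/f lines it changed by 0.096 to 0.15, above every KPC line, so that the length trend differed between the genotypes. Because the mean includes A1620, the steep fall in that line raises the values of all other lines. Reads of 4 genes of the Y chromosome (Uty, Kdm5d, Ddx3y and Eif2s3y) summed to 0 to 3 in each KPCAf/f line and 1148 to 3415 in each KPC line, so that genotype and Y-linked expression cannot be told apart in any comparison. All levels are given as counts normalized for library size, and log2 fold changes set KPCAf/f over KPC after adding 1 to each normalized count. The added 1 shrinks changes of low genes. The fold changes are differences of mean log2 levels, so that with reads at 0 in some lines they can still exceed the ratio of means.

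Nr1h4 was lower in every KPCAf/f line than in every KPC line. It had 12.6 normalized counts in A1693, 9.00 in A1809, 13.5 in A1925, 54.0 in A2441 and 23.8 in A3992 (KPCAf/f), against 105 in A1081, 126 in A1620, 105 in A1625, 72.6 in A2031 and 120 in A2032 (KPC). Relative to the mean of their genotype, the KPC lines varied less than the KPCAf/f lines. A2441 stood above the other KPCAf/f lines and came closest to the lowest KPC line, A2031. The means were 22.6 ± 18.4 in KPCAf/f and 106 ± 20.6 in KPC (SD, n = 5 each), 4.68 times more in KPC, and the log2 difference was -2.44. Without A2441 the KPCAf/f mean was 14.7 ± 6.35 (n = 4). Among all 13089 genes with enough reads, 1.69% had every KPCAf/f line below every KPC line, and nothing is read from Nr1h4 being one of them, since it was chosen for this. In libraries of bulk RNA, fewer cells with the transcript and less of it per cell cannot be told apart.

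Nr0b2 had 39.6 normalized counts in A3992 and 0.900, 0, 0 and 0 in A1693, A1809, A1925 and A2441 (KPCAf/f), against 89.0 in A1081, 122 in A1620, 49.9 in A1625, 31.3 in A2031 and 325 in A2032 (KPC). Reads of it were thus found in every KPC line, and in KPCAf/f they came from A3992 apart from 1 read in A1693. A3992 lay above KPC line A2031, so that the genotypes overlapped. The means were 8.11 ± 17.6 in KPCAf/f and 123 ± 118 in KPC (SD, n = 5 each), 15.2 times more in KPC. The log2 difference was -5.24, larger than the -3.90 of edgeR and the -3.94 of DESeq2. The KPCAf/f lines held 46 reads in all and 1 without A3992, against 580 in KPC. Without A2032, the KPC line with most Nr0b2, the KPC mean was 73.0 ± 40.5 (n = 4).

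**Figure D1:**
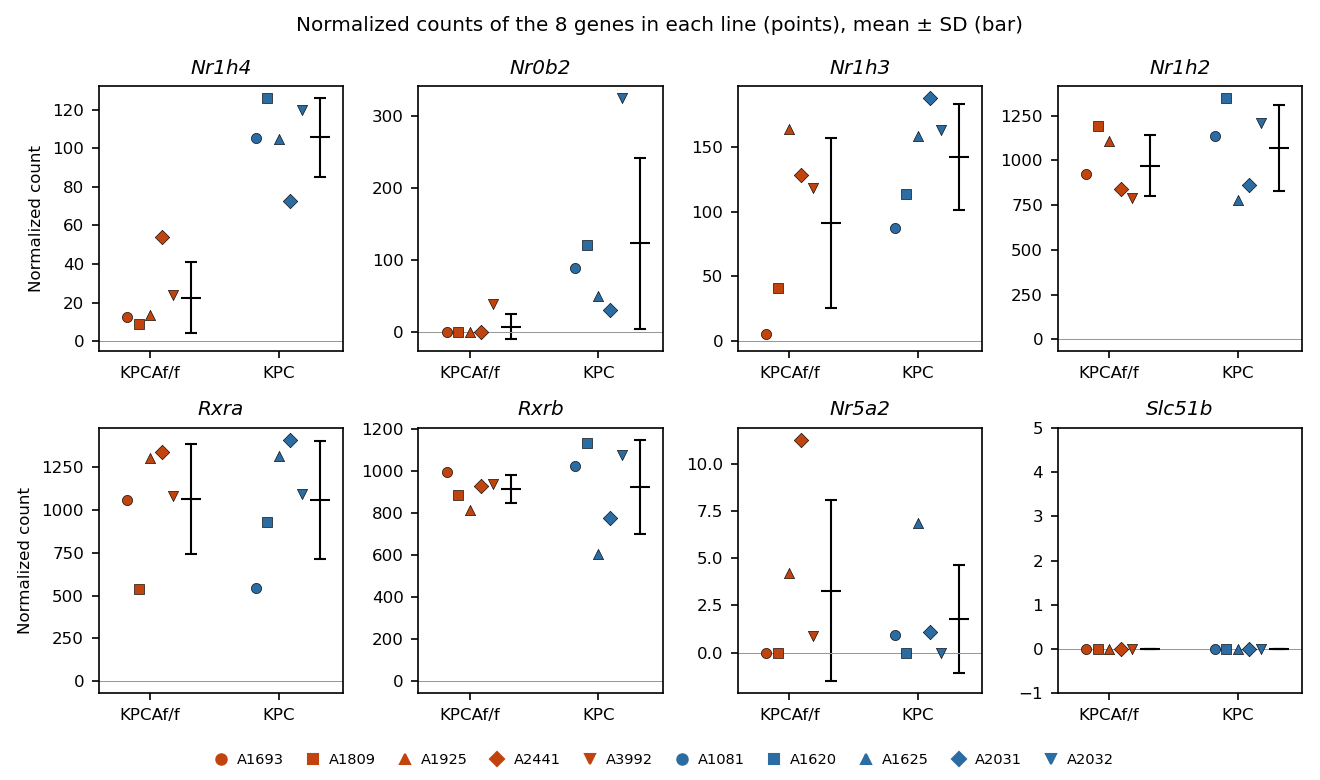
Normalized counts (y axis, linear) of the 8 genes in each line, with KPCAf/f lines in orange and KPC lines in blue, 1 marker per line and the mean ± SD of 5 lines as a bar. Nr1h4 separates the genotypes, Nr0b2 is at 0 or 0.900 in 4 KPCAf/f lines, Nr1h2, Rxra and Rxrb overlap, and Slc51b is at 0 throughout.

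The receptor and its target did not rank the KPCAf/f lines alike, while in KPC their order differed only for A1620 and A2032. A2441, the KPCAf/f line with most Nr1h4 (54.0), had 0 reads of Nr0b2, and A3992, with less Nr1h4 (23.8), was the KPCAf/f line with Nr0b2. In KPC, A2031 was lowest for both genes, at 72.6 and 31.3. A1625 and A1081 came next, with about the same Nr1h4 (105) and with 49.9 and 89.0 of Nr0b2. A1620 had the most Nr1h4 (126) and A2032 the most Nr0b2 (325). Over deviations from the genotype means in the 10 lines, the Pearson r between the genes was 0.25, given as a description. Points of this kind share the library and its depth.

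Both promoters are shown because these are the genes that separate or nearly separate the genotypes. The sequences are RefSeq windows of 300 bases (GRCm38.p6), from 250 before to 50 after the annotated start, written on the gene's strand. Capitals mark the nuclear receptor core AGGTCA on either strand, which 16.3% of all 32851 windows hold, and TCAAGG, a core of the element that LRH-1 binds, which 14.4% hold. The second motif was added after the first set had been searched.
Nr1h4: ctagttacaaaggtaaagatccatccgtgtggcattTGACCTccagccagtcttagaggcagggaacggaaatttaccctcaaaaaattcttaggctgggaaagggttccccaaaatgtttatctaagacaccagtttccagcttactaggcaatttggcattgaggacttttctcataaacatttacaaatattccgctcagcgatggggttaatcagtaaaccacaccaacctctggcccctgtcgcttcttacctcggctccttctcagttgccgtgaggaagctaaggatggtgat
Nr0b2: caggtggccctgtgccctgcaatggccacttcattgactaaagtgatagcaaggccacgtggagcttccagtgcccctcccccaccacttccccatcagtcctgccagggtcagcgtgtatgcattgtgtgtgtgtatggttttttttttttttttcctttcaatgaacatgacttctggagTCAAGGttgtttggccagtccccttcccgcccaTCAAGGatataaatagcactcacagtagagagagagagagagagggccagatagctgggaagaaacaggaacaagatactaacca
The Nr1h4 window, at chr10:89506609-89506908 on the minus strand, lies at the start RefSeq gives, and the GENCODE gene reaches further upstream, to position 89533585. It held 1 core AGGTCA, on the reverse strand and beginning 214 bases before the start, and no TCAAGG. The Nr0b2 window, at chr4:133553126-133553425 on the plus strand, held no AGGTCA and TCAAGG at 2 places, beginning 68 and 35 bases before the start. None of CAAGGTCA (in 1.56% of windows), the inverted repeat of AGGTCA spaced by 1 base (in 0.00913%), or its direct repeats spaced by 1 base (0.0396%) and by 4 bases (0.0152%) was found in either window. A match is a run of letters only, and its absence says only that these letters are not in the window.

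By their mean log2 level, lines high in epithelial markers were not always those high in Nr1h4. The mean level of 16 epithelial markers on the log2(normalized count + 1) scale was 4.43 in A1693, 12.41 in A1809, 8.16 in A1925, 7.22 in A2441 and 10.08 in A3992 (KPCAf/f), against 9.11 to 10.83 in the KPC lines. By this mean A1809 had the highest epithelial level of all lines, and it had the lowest Nr1h4 (9.00 normalized counts) and 0 reads of Nr0b2. A2441, whose epithelial level was above that of A1693 only, had the most Nr1h4 of the KPCAf/f lines. By limma 0 of the 16 epithelial markers passed, against 1.75% of all genes, with 6 lower and 0 higher at an unadjusted p under 0.05. The share of all genes at this unadjusted level is not given, so that such counts, here and below, are a description. Their summed normalized counts were 6221 to 139185 in KPCAf/f and 183748 to 375738 in KPC. Ranked by the sum, every KPCAf/f line, A1809 included, thus lay below every KPC line. Fibroblast markers moved with the genotype, with mean log2 levels of 6.65 to 8.20 in KPCAf/f and 1.91 to 2.09 in KPC. Of 7 tested markers 6 were called higher by limma, against 1.36% of all genes. Dcn, Lum, Fap, Thy1 and Postn did not have enough reads to be tested. A marker below 10 normalized counts in every KPC line was tested only with all 5 KPCAf/f lines at 10 or above. The filter thus set the direction of such markers, and their count is a description. Summed normalized counts of the 12 fibroblast markers were 16234 to 88563 in KPCAf/f and 478 to 905 in KPC, none was at 0 in every line, and their part in the levels of Nr1h4 and Nr0b2 was not tested.

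**Figure D2:**
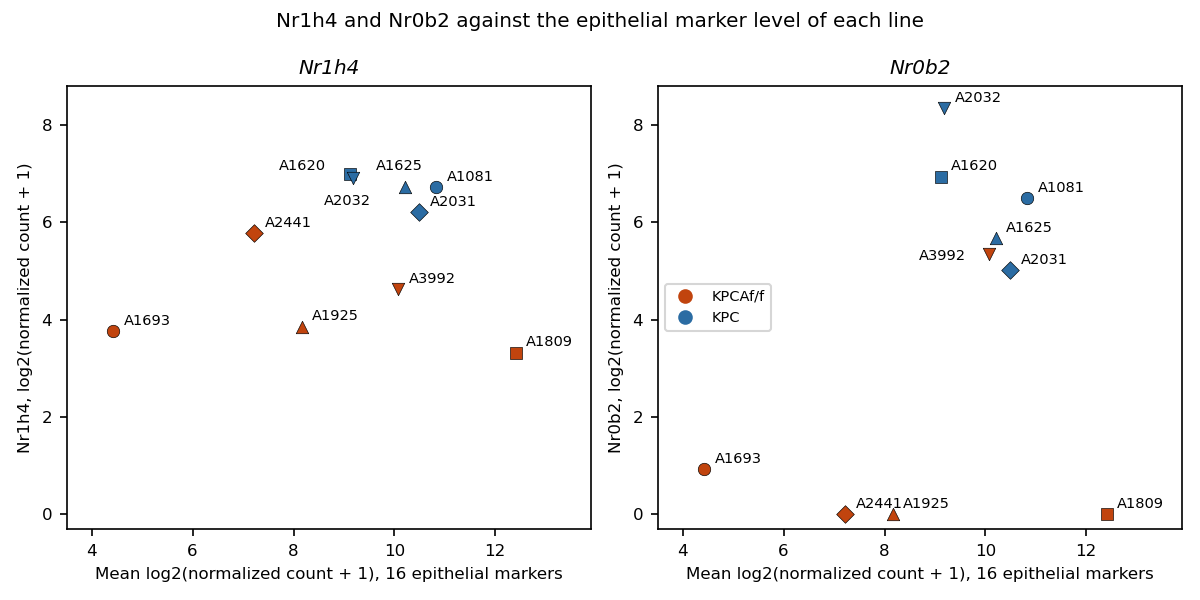
Level of Nr1h4 (left) and Nr0b2 (right), as log2(normalized count + 1), against the mean of 16 epithelial markers on the same scale, 1 labelled marker per line. A1809 sits at the right end at 12.41 with the lowest Nr1h4 and no Nr0b2, and the KPC lines sit between 9.11 and 10.83.

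Markers of liver and intestinal cells, which use FXR, were read as well. Of 12 hepatocyte markers Cyp3a11 and Tat were at 0 in every line and 7 were below 10 normalized counts in every line. The apolipoprotein gene Apob was the abundant one of the list, at 19.8 to 30699 normalized counts in KPCAf/f and 6179 to 25423 in KPC. Among 10 enterocyte markers 0 of 5 tested passed by limma, against 1.75% of all genes. The cadherin Cdh17 was at 28.8 to 1297 normalized counts in KPCAf/f and 1232 to 13874 in KPC (limma adjusted p = 0.0676). The summed level of the enterocyte list was 35.1 to 2721 in KPCAf/f and 2632 to 15741 in KPC, and its part in the level of Nr1h4 was not tested.

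The second mouse FXR gene, Nr1h5, whose product binds lanosterol, was measured beside Nr1h4. It had 162 normalized counts in A2441, 0 in A1693 and A3992, 2.46 in A1809 and 0.843 in A1925 (KPCAf/f), against 0.947 in A1081, 187 in A1620, 807 in A1625, 702 in A2031 and 619 in A2032 (KPC). A2441 was thus the KPCAf/f line with most of both FXR genes, and A1081 was a KPC line with Nr1h4 but almost no Nr1h5. The log2 fold change of Nr1h5 was -5.38 (SE 1.85) and did not pass (limma adjusted p = 0.208). Without A1081 it was -6.98 and passed (limma adjusted p = 0.0409).

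Of the FXR targets, 4 of 14 stayed below 10 normalized counts in every line, Slc51b among them. Slc51b, the subunit that forms the basolateral bile acid exporter with OST alpha, had 0 reads in every line. Of 95048048 reads in KPCAf/f and 88815493 in KPC, a count of 0 allows up to 3, or means of 0.541 and 0.639 normalized counts. The gene shares 91 exon bases with Rasl12 on the opposite strand in GENCODE, and no read was assigned to it. Abcb11, the canalicular bile salt export pump, reached at most 4.50 normalized counts in KPCAf/f and 1.32 in KPC, and Fabp6, the ileal bile acid binding protein, was at 0 in KPCAf/f and reached 1.03 in KPC. Fgf15, the intestinal hormone that FXR induces, reached 22.1 in KPCAf/f line A1809 and 11.4 in KPC line A1081.

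Slc51a, the OST alpha subunit, was expressed without its partner in some lines. It had 0.900 normalized counts in A1693, 4.91 in A1809, 30.4 in A1925, 0 in A2441 and 214 in A3992 (KPCAf/f), against 19.9 in A1081, 88.7 in A1620, 3.91 in A1625, 6.71 in A2031 and 27.8 in A2032 (KPC). The highest KPCAf/f line, A3992, was also the one with Nr0b2. The log2 fold change of Slc51a was -0.95 (SE 1.40, limma adjusted p = 0.769), although the mean was higher in KPCAf/f (50.1 ± 92.5) than in KPC (29.4 ± 34.6). Its sign turned with edgeR (0.76), with DESeq2 (0.74) and without A1620 and A1693 (0.20).

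**Figure D3:**
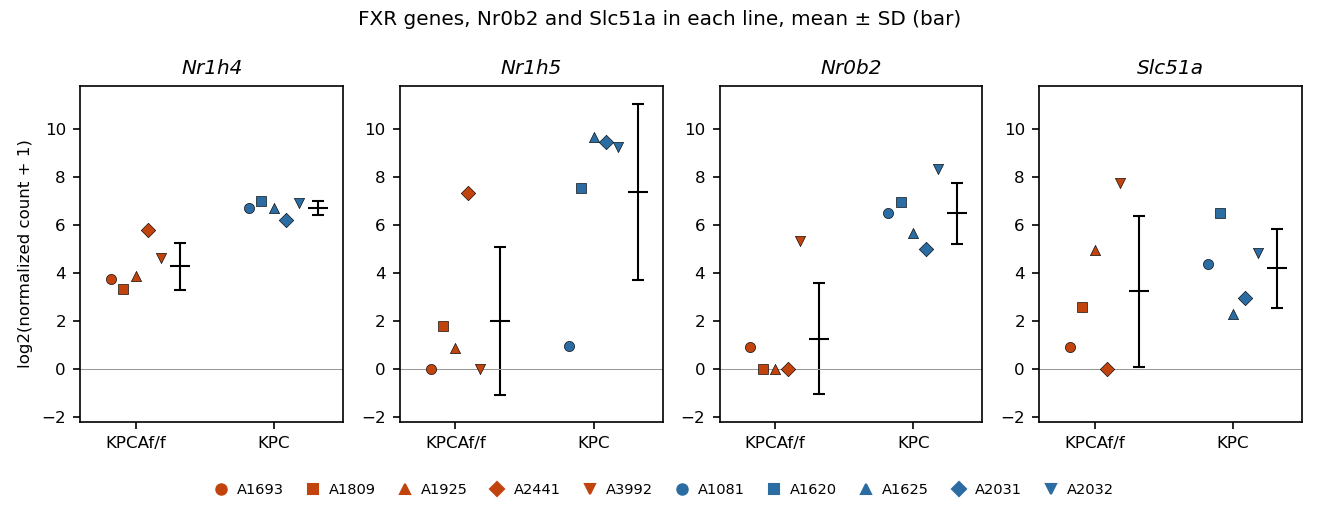
Levels of the FXR genes Nr1h4 and Nr1h5, of Nr0b2 and of Slc51a as log2(normalized count + 1), 1 marker per line, KPCAf/f in orange and KPC in blue, with mean ± SD of 5 lines. A2441 is the KPCAf/f line highest in both FXR genes, and A3992 is the one highest in Nr0b2 and Slc51a.

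Over the 14 genes of the FXR target list, 7 had enough reads. Leaving aside Nr0b2, 0 of 6 were called in either direction by limma over all genes, where 1.75% of all tested genes were called, and 1 higher and 0 lower had an unadjusted p under 0.05. The median log2 fold change of these 6 was -0.20, against -0.01 over all genes tested. Fetub, a liver-secreted protease inhibitor of the fetuin family, was at 141 ± 87.2 normalized counts in KPCAf/f and 32.0 ± 29.5 in KPC (2.26 ± 0.53 SE on the log2 scale, adjusted p = 0.0606 by limma), and without A1620, the KPC line with 84.8, it passed (limma adjusted p = 0.0111). Fetub also passed with DESeq2 (adjusted p = 0.0103), array weights, the length correction and without A1620 and A1693, and it did not with edgeR (adjusted p = 0.131). The syndecan Sdc1 was at 6348 ± 2706 in KPCAf/f and 7529 ± 649 in KPC (adjusted p = 0.596, limma), and the lipoprotein receptor Vldlr was at 618 ± 293 and 715 ± 320 in the same order (limma adjusted p = 0.798).

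Genes that make, take up or sense bile acids were few. Of 18 in the list 8 stayed below 10 normalized counts in every line, among them Cyp7a1, the rate-limiting enzyme of bile acid synthesis, and the hepatic uptake carrier Slc10a1, both at 0 in every line, and the membrane bile acid receptor Gpbar1. By limma 0 of the 6 tested genes were called, against 1.75% of all genes, and 1 higher and 1 lower had an unadjusted p under 0.05. Fgfr4, the receptor that answers to Fgf15, had 1.8, 9.82, 104, 8.99 and 130 normalized counts in A1693, A1809, A1925, A2441 and A3992 (KPCAf/f), against 352, 88.7, 365, 445 and 393 in A1081, A1620, A1625, A2031 and A2032 (KPC). Its log2 fold change of -3.78 (SE 1.01) did not pass (limma adjusted p = 0.103), and it passed without A3992 (adjusted p = 0.0472, limma), with array weights (adjusted p = 0.0461, limma) and with DESeq2 (adjusted p = 0.0404), but not with edgeR (adjusted p = 0.242). Cyp27a1, a sterol 27-hydroxylase, was at 98.1 ± 70.9 in KPCAf/f and 31.4 ± 22.3 in KPC (limma adjusted p = 0.303). The ileal uptake carrier Slc10a2 was at 12.3 ± 20.7 and 24.6 ± 25.8 in the same order (limma adjusted p = 0.584), and the efflux pump Abcc4 was at 1748 ± 750 and 2421 ± 1021 (limma adjusted p = 0.662).

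Of the 6 members not chosen on their values, 4 had enough reads to be tested and 0 were called by limma, against 1.75% of all genes. With edgeR and with DESeq2 the count was also 0, and by limma 0 reached an unadjusted p under 0.05. The ubiquitous LXR gene Nr1h2 was at 923, 1193, 1108, 841 and 792 normalized counts in A1693, A1809, A1925, A2441 and A3992 (KPCAf/f), against 1137, 1348, 781, 860 and 1211 in A1081, A1620, A1625, A2031 and A2032 (KPC). The ranges overlapped, and the log2 fold change of -0.12 had a 95% interval of -0.59 to 0.34 (limma adjusted p = 0.801).

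Nr1h3, the LXR gene best known from liver and macrophages, varied among the KPCAf/f lines. It had 5.40 normalized counts in A1693, 40.9 in A1809, 164 in A1925, 128 in A2441 and 118 in A3992 (KPCAf/f), against 87.1 in A1081, 114 in A1620, 158 in A1625, 188 in A2031 and 163 in A2032 (KPC). A1693 and A1809 lay below every KPC line and the other KPCAf/f lines lay within the KPC range. The log2 fold change was -1.24 (95% interval -2.99 to 0.51, limma adjusted p = 0.493) and -0.44 without A1693 (limma adjusted p = 0.706). GENCODE places 34 exon bases of the transcript Gm13783 on Nr1h3 exons of the same strand, so that a few of its reads could be shared.

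The partners Rxra and Rxrb were abundant in both genotypes. Rxra had 1055, 537, 1303, 1336 and 1083 normalized counts in A1693, A1809, A1925, A2441 and A3992 (KPCAf/f), against 541, 929, 1316, 1407 and 1093 in A1081, A1620, A1625, A2031 and A2032 (KPC). Rxrb had 993, 885, 814, 930 and 938 in the KPCAf/f lines in the same order, against 1024, 1133, 607, 774 and 1076 in the KPC lines. Both genes overlapped between genotypes, and a line from each genotype, A1809 and A1081, had about the least Rxra. The log2 fold change was 0.01 for Rxra (95% interval -0.69 to 0.72, limma adjusted p = 0.988) and 0.02 for Rxrb (95% interval -0.43 to 0.47, limma adjusted p = 0.977). Differences within these intervals could have gone unseen with 5 lines a genotype. The intervals are not adjusted over all genes, so that a call would have needed a difference larger than these bounds. The sign of both turned under some other settings. Rxrg, the third RXR gene, had 0 reads in every line.

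Per kilobase of the longest annotated transcript, RXR beta exceeded RXR alpha in 9 of 10 lines. Rxra made up 37.7 ± 8.38% of the pair in KPCAf/f and 38.2 ± 13.2% in KPC (SD, n = 5 each), and A1625 alone had more Rxra than Rxrb (53.7%). In KPC lines the order of levels per kilobase was Nr1h2 at 534 ± 120, Rxrb at 351 ± 85.1, Rxra at 216 ± 70.1, Nr0b2 at 109 ± 104, Nr1h3 at 71.6 ± 20.5, Nr1h4 at 52.4 ± 10.2 and Nr5a2 at 0.377 ± 0.608 normalized counts (SD, n = 5). The ranges of mean ± SD overlapped between neighbours in this order, except that Nr5a2 lay below Nr1h4. KPCAf/f lines had Nr1h2 at 486 ± 86.4, Rxrb at 347 ± 25.4, Rxra at 217 ± 65.2, Nr1h3 at 46.0 ± 33.0, Nr1h4 at 11.2 ± 9.14, Nr0b2 at 7.16 ± 15.6 and Nr5a2 at 0.690 ± 1.01 on the same scale. There the SDs of Nr1h3, Nr1h4 and Nr0b2 overlapped, as did those of Nr0b2 and Nr5a2. Of the FXR and LXR beta pair, Nr1h4 made up 2.43 ± 2.15% in KPCAf/f lines and 9.06 ± 1.56% in KPC lines.

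Nr5a2 (LRH-1), a receptor of acinar cells and an activator of Nr0b2, was close to the detection limit. It had 0 reads in A1693 and A1809 and 4.22, 11.2 and 0.881 normalized counts in A1925, A2441 and A3992 (KPCAf/f), against 0.947, 0, 6.85, 1.12 and 0 in A1081, A1620, A1625, A2031 and A2032 (KPC). The totals were 16 reads in KPCAf/f and 9 in KPC, a ratio of 1.51 with an exact 95% interval of 0.627 to 3.87 for counting error, and the gene did not have enough reads to be tested. The ratio rested on single lines: it was 0.673 without A2441 and 5.31 without A1625, which left 2 reads in KPC. Nr0b2 was highest in KPC line A2032, where Nr5a2 had 0 reads. Acinar markers were near the floor as well, with 10 of 12 below 10 normalized counts in every line and Pnlip, Amy2b and Gp2 at 0. Among 15 LRH-1 target genes 5 had enough reads, and beside Nr0b2 these were Cela1, Ccne1, Ccnd1 and Scarb1. Of these, 0 were called by limma, against 1.75% of all genes, and 0 had an unadjusted p under 0.05. Cela1, an acinar elastase, was at 51.8 ± 45.0 normalized counts in KPCAf/f and 95.4 ± 71.8 in KPC (limma adjusted p = 0.526).

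Among the LXR targets the cholesterol exporter Abca1 rose in KPCAf/f. Of 15 tested genes 1 was called higher and 0 lower by limma over all genes, against 1.36% of all genes called higher, and 4 higher and 0 lower had an unadjusted p under 0.05. The median log2 fold change of the list was 0.03. Abca1, which exports cholesterol to lipid-poor apolipoproteins, had 3656 normalized counts in A1693, 47.5 in A1809, 1645 in A1925, 1754 in A2441 and 649 in A3992 (KPCAf/f), against 1.89, 3.97, 3.91, 15.6 and 42.3 in A1081, A1620, A1625, A2031 and A2032 (KPC). Every KPCAf/f line lay above every KPC line, as in 2.84% of all genes (4.53% did not overlap in either direction), but A1809 was only just above A2032. The means were 1550 ± 1374 in KPCAf/f and 13.5 ± 17.0 in KPC (SD, n = 5 each), with a log2 fold change of 6.52 (SE 1.13, limma adjusted p = 0.0134). Leaving out A1620 and A1693 together ended the call (limma adjusted p = 0.0766).

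Mylip, Lpl and Abcg1 had an unadjusted p under 0.05 and did not pass the test over all genes. Mylip, a ubiquitin ligase for the LDL receptor, was at 348, 14.7, 189, 56.2 and 26.4 normalized counts in A1693, A1809, A1925, A2441 and A3992 (KPCAf/f), against 0 to 11.3 in KPC lines, with no overlap (limma adjusted p = 0.0565). Lpl, lipoprotein lipase, was at 63.8 to 771 in KPCAf/f and 0.947 to 81.4 in KPC (limma adjusted p = 0.0605). Abcg1, which exports cholesterol to HDL, was at 33.5 to 1111 in KPCAf/f and 6.63 to 48.1 in KPC (limma adjusted p = 0.0998). Without A1809 Mylip (limma adjusted p = 0.0293) and Lpl (0.0405) passed, and so did Lpl without A2032 (0.0258) and Abcg1 without A3992 (0.0279). All 3 genes also passed with DESeq2 and with array weights, and none of the 3 with edgeR (adjusted p of 0.0761 to 0.131). Lpcat3, a phospholipid acyltransferase, was at 1914 ± 533 in KPCAf/f and 2598 ± 800 in KPC (limma adjusted p = 0.437), and Srebf1, the master regulator of fatty acid synthesis, was at 2090 to 4264 in KPCAf/f and 2861 to 5330 in KPC (limma adjusted p = 0.530).

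The lines with most of each target differed in LXR genes. A2441 had the most Lpl and Abcg1, with Nr1h3 at 128 normalized counts, inside the KPC range, and Nr1h2 at 841. A1693 had the most Abca1 and Mylip and the least Nr1h3 of all lines, at 5.40 normalized counts, with Nr1h2 at 923. Macrophages express both Abca1 and Nr1h3. Of 12 macrophage markers 6 were below 10 normalized counts in every line, among them Adgre1 and the C1q chains. Cd68, Csf1r, Cd14 and Mrc1 had enough reads to be tested. By limma 0 of these 4 were called, against 1.75% of all genes, and 0 higher and 1 lower had an unadjusted p under 0.05. The sum over the list was 411 to 2455 in KPCAf/f and 1596 to 3172 in KPC, and its part in these levels was not tested. The part of the fibroblast markers, which separate the genotypes as given above, was not tested.

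**Figure D4:**
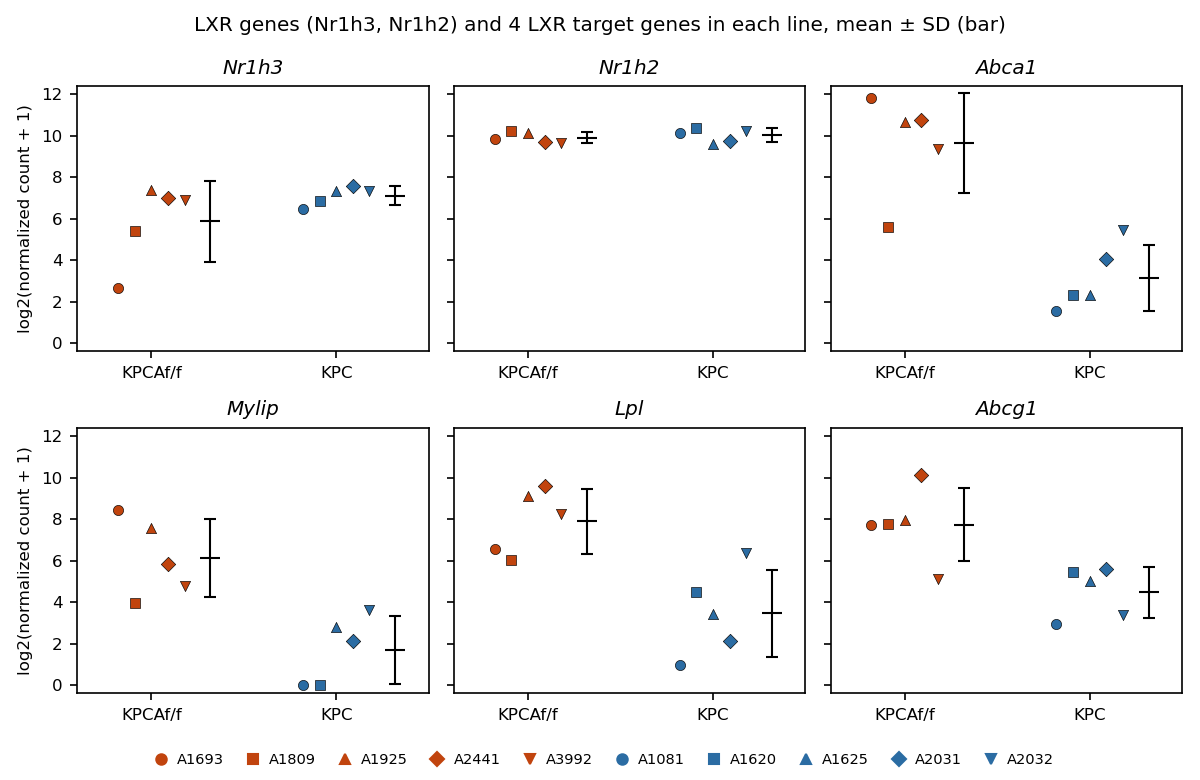
Levels of the LXR genes Nr1h3 and Nr1h2 and of the LXR targets Abca1, Mylip, Lpl and Abcg1 as log2(normalized count + 1), 1 marker per line, KPCAf/f in orange and KPC in blue, with mean ± SD of 5 lines. Nr1h2 is level across lines, Nr1h3 is lowest in A1693, and Abca1 and Mylip do not overlap between genotypes.

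The nuclear receptor family was read as a whole to place these genes. Enough reads were found for 37 of its 49 genes. Leaving aside Nr1h4 and Nr0b2, 2 of 35 were called higher and 0 lower by limma (5.71%, against 1.75% of all genes), 6 higher and 4 lower had an unadjusted p under 0.05, and the median log2 fold change was 0.08. Rarg, the retinoic acid receptor gamma and a partner of RXR, had 3253, 1895, 3361, 4487 and 1939 normalized counts in A1693, A1809, A1925, A2441 and A3992 (KPCAf/f), against 726, 592, 717, 704 and 1081.5 in A1081, A1620, A1625, A2031 and A2032 (KPC). All KPCAf/f lines lay above all KPC lines, the log2 fold change was 1.92 (SE 0.27, limma adjusted p = 0.00390), and the call stood under each of 21 other settings.

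Nr4a2, an orphan receptor of the immediate early kind that can pair with RXR, was at 308 ± 101 normalized counts in KPCAf/f and 72.8 ± 46.9 in KPC (SD, n = 5 each), with no overlap between 202 and 473 in KPCAf/f and between 17.2 and 144 in KPC. Its log2 fold change of 2.30 (SE 0.51) passed narrowly (limma adjusted p = 0.0492), and the call was lost under 13 of 21 other settings (limma adjusted p up to 0.111), among them leaving out any 1 line other than A1620 or A2032. Among those that did not pass, the vitamin D receptor Vdr was at 83.2 ± 76.1 in KPCAf/f and 12.7 ± 8.01 in KPC (limma adjusted p = 0.106), and it passed with DESeq2 (adjusted p = 0.00467). The mineralocorticoid receptor Nr3c2 was at 65.0 ± 56.9 and 384 ± 215 in the same order (limma adjusted p = 0.146), and it passed with DESeq2 (adjusted p = 0.0103) and without A1620 and A1693 (limma adjusted p = 0.0361). Nr4a1 was at 673 ± 284 in KPCAf/f and 345 ± 134 in KPC (limma adjusted p = 0.243), and Pparg, the adipogenic receptor and RXR partner, was at 1130 ± 839 in KPCAf/f and 2186 ± 643 in KPC (limma adjusted p = 0.280). Of the 16 tested RXR partners, the 15 beside Nr1h4 included 2 called higher and 0 lower (13.3%, against 1.75% of all genes), which are Rarg and Nr4a2.

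**Figure D5:**
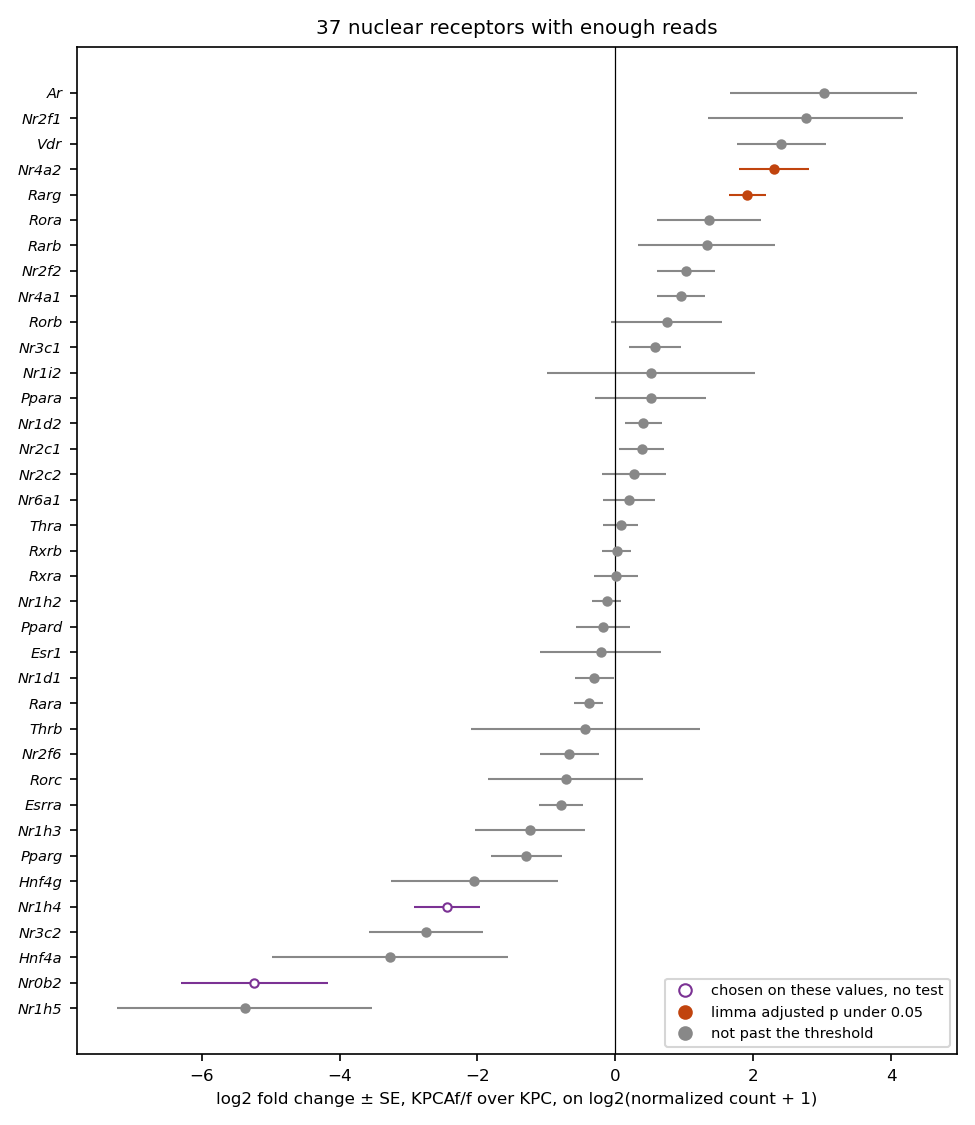
Log2 fold change ± SE, KPCAf/f over KPC (x axis), of the 37 nuclear receptor genes with enough reads, sorted by size. Open purple points are Nr1h4 and Nr0b2, chosen on these values, orange points passed the limma test (Rarg and Nr4a2), and grey points did not; Rxra, Rxrb and Nr1h2 sit near 0.

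Coactivators and corepressors of these receptors were all abundant enough to test. All 22 had enough reads, 0 were called higher and 1 lower by limma (0.390% of all genes were called lower), and the median log2 fold change was 0.21. Ppargc1a (PGC-1 alpha), a coactivator of FXR, PPARs and estrogen-related receptors, had 19.8, 72.0, 32.0, 52.8 and 33.5 normalized counts in A1693, A1809, A1925, A2441 and A3992 (KPCAf/f), against 94.7, 110, 291, 272 and 163 in A1081, A1620, A1625, A2031 and A2032 (KPC). The genotypes did not overlap, and the log2 fold change of -2.11 (SE 0.46) passed (limma adjusted p = 0.0470). The call was lost under 12 of 21 other settings (limma adjusted p up to 0.128), among them leaving out any 1 line other than A1809 or A1081. Hdac3, the deacetylase of the corepressor complex, was at 2277 ± 196 in KPCAf/f and 2896 ± 457 in KPC (limma adjusted p = 0.351). The arginine methyltransferase Carm1 was at 3606 ± 713 in KPCAf/f and 2726 ± 389 in KPC (limma adjusted p = 0.364), the corepressor subunit Gps2 at 448 ± 140 and 707 ± 336 in that order (limma adjusted p = 0.414), and the histone demethylase Kdm6a at 1248 ± 299 and 854 ± 398 (limma adjusted p = 0.472).

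Genes with a pattern most like that of Nr1h4 over the 10 lines were Ywhaz, Oasl1, Hprt, Havcr2 and Rrm2, with Pearson r of 0.95, 0.94, 0.93, 0.93 and 0.93 on the log2 scale. This measure mixes the difference between genotypes with that within them. Over deviations from the genotype means they were Akr1b10, Katnal1, Aplf, Gfpt2 and Fam109b (r of 0.97, 0.92, 0.92, 0.92 and 0.90). Each of these was highest in A2441, the KPCAf/f line with most Nr1h4, and the part of this line in r was not tested. Gfpt2 was at 0 in every KPC line and had enough reads through the KPCAf/f lines only. The genes most like Nr0b2 were Abhd6, Zfp706, Sar1b, Atp4a and Hprt over all 10 lines (r of 0.94, 0.93, 0.93, 0.93 and 0.92). Over deviations they included Bsg, Pgrmc1, Tdrkh and Gsc2 (r of 0.92, 0.91, 0.91 and 0.89). The genes nearest to Nr1h4 and to Nr0b2 shared 1 name, Hprt, and with 10 points among 13089 genes such values are a description only.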

How the data were processed

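Messenger RNA of 10 lines was sequenced from stranded Illumina TruSeq libraries, per the labels' protocols. The aligner STAR 2.5.2b, the counter featureCounts of Subread 1.5.0p3 and the normalizer DESeq2 1.14.1 (under R 3.3.2), with bcl2fastq 1.8.4 and Trimmomatic 0.36 before them, are named per the submitters' processing notes, as are the builds GRCm38.p5 and mm9 without a role. Which annotation and strand setting served for counting is not given in the sources used here. Deposited values are a signal: counts per gene over a DESeq2 size factor per library, with no division by length, as the name of the deposited table and its whole-read steps show. Dividing by the smallest step gave whole reads within 0.001 read for 100.0% of values, and these recovered reads were used for edgeR 4.0.16 and DESeq2 1.42.0.

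Genes were tested with limma 3.58.1 (R 4.3.3, trend on mean level) for KPCAf/f over KPC, two-sided, after log2(normalized count + 1), and adjusted by Benjamini-Hochberg over the 13089 genes with at least 10 normalized counts in at least 5 lines, with calls at adjusted p under 0.05. Where all 5 lines of a genotype lay below 10, a gene entered only with all lines of the other at 10 or above. Members and lists were chosen with earlier results of these data known. Named genes were the members, called genes of each list, up to 4 others of each list by smallest p, and the 5 genes most like Nr1h4 and Nr0b2 (by both measures), of which 1 is not reported here. Cdh17, Srebf1, Abcb11, Fabp6, Fgf15, Cyp7a1, Slc10a1, Gpbar1, Rxrg and Apob were named after their values were seen. The fit was tested on simulated data. Alternatives were other pseudocounts (0.5 and 5), a mean of at least 100 or no filter, TMM or quantile scaling, array weights, edgeR, DESeq2, lines left out, and a loess correction for transcript length. Positions and lengths are those of GENCODE M21 (GRCm38), where 95.3% of symbols were found. Figures were drawn with matplotlib 3.10.9.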

Additional observations from a re-analysis of the deposited data

Results flagged for a closer look

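In 13 of 71 groups of 5 lines examined for the members and the other named genes, 1 line stood apart from the rest of its genotype by Dixon's ratio of gap to range (above 0.71). For normally distributed values chance flags about 1 in 20 groups. The ratio was taken on normalized counts without a log, so that no excess over this share is read from the flags. Among KPCAf/f lines, A3992 stood apart for Nr0b2 (39.6 normalized counts, next highest 0.900) and for Slc51a (214, next 30.4), and A2441 for Nr1h5 (162, next 2.46), Abcg1 (1111, next 251) and Vdr (214, next 74.2). A1693 stood apart for Fetub (295, next 123) and A1809 for Slc10a2 (48.3, next 11.5). Among KPC lines, A1620 stood apart for Fetub (84.8, next 19.6), Slc51a (88.7, next 27.8) and Gps2 (1301, next 636), and as the lowest for Fgfr4 (88.7, next 352), and A2032 for Lpl (81.4, next 21.2) and Rarg (1081.5, next 726). A1620 is also the line whose levels, relative to the mean of the lines, fell most with transcript length, and the part of this in its 4 values was not tested.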

How the results depend on the processing

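No paired analysis was possible because the labels give no replicate numbers or pairing. Of 35 results for single genes, 726 values under alternatives were computed, of which 648 counted as unchanged, 26 lost a call, 24 gained one and 28 turned sign. Unchanged means that direction and side of the threshold were kept. For Nr1h4 and Nr0b2, which were not tested, it means the same sign and a shift smaller than the SD within genotypes. This held for all 20 alternatives of each. Of the 6 members not chosen on their values, 0 were called under any alternative. The log2 difference of Nr1h4 lay between -2.82 and -2.19 and that of Nr0b2 between -6.26 and -3.57. Over all genes 229 were called (178 higher, 51 lower), against 131 (109 higher, 22 lower) with a mean of at least 100, 586 (403, 183) with array weights and 731 (521, 210) with DESeq2. With edgeR 27 were lower. Leaving out 1 line gave 152 (without A1925) to 318 called, 122 to 227 higher and 24 to 91 lower. Signs turned for genes that passed nowhere: Nr1h2 with array weights (0.078), Rxra with array weights (-0.029), without A1620 and A1693 (-0.0286), with length correction (-0.13) and over lines left out (-0.21 to 0.24), Rxrb with edgeR (-0.014), DESeq2 (-0.026) and over lines left out (-0.12 to 0.10). Slc51a turned with array weights (0.35), edgeR (0.76), DESeq2 (0.74) and without A1620 and A1693 (0.20). Vldlr (-0.45 to 0.017), Ccnd1 (-0.38 to 0.011) and Scarb1 (-0.18 to 0.056) turned over lines left out, Ccnd1 with quantile scaling (0.19) and without A1620 and A1693 (0.062), and Scarb1 with quantile scaling (0.0078). The cause was not tested. Low reads limit Nr5a2 and Slc51b, and 5 lines a genotype limit the rest.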
